A study of Homo sapiens with 3 samples.

Results

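The CDCA genes were measured in 5637 cells, an established human bladder cancer line, after small interfering RNA (siRNA) against 1 of them, CDCA3. The 7 genes CDCA2, CDCA3, CDCA4, CDCA5, CDCA7, CDCA7L and CDCA8 were taken by symbol from a table of 19225 gene symbols, and all 7 were among the 10153 genes with a mean of at least 1 RPKM (read counts divided by transcript length and sequencing depth) over the libraries. The 7 genes had 18 transcript rows of 45006 in that table, and each gene is represented by its row with the highest summed count. The 3 libraries were 1 from control siRNA (siNC) and 2 from CDCA3 siRNA (siCDCA3-1 and siCDCA3-2), all of wild-type genotype by their labels and all transfected with a Lipofectamine reagent. The labels give both siCDCA3 libraries a single treatment and do not say whether they are 2 siRNA sequences or repeated cultures, so p-values measure only the spread between these libraries, which may be technical. The study asked which genes act downstream of CDCA3 in bladder cancer, and its title names MYBL2 as an activator of CDCA3.

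The libraries held from 40420563 to 62389922 gene-level counts, and the least covered value of a member rested on 108 counts, for CDCA3 in siCDCA3-1. Intervals are exact 95% intervals and cover counting error only. All 11 epithelial and urothelial marker genes examined were at 1 RPKM or more in each library, with sums of 2642 RPKM in siNC, 2259 in siCDCA3-1 and 1811 in siCDCA3-2. Sums over the 7 leukocyte markers ran from 1.41 to 2.71 RPKM, with CD68 the highest, and those over the 4 endothelial markers from 0.0337 to 0.104 RPKM. The 7 fibroblast markers summed to 2.39 to 10.05 RPKM, most of it COL1A1 with 6.96, 8.33 and 2.26 RPKM in siNC, siCDCA3-1 and siCDCA3-2. In bulk RNA of this kind, fewer cells in a given phase of the cycle and less RNA per cell cannot be told apart.

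CDCA7L apart, the CDCA (cell division cycle associated) genes were named because their transcripts rise and fall with known cell cycle genes. They were not named for a shared protein sequence. CDCA3, also called TOME-1, acts with a ubiquitin ligase of the SCF type on the mitotic kinase inhibitor WEE1 and so favours entry into mitosis. CDCA8 (borealin) is a subunit of the chromosomal passenger complex, CDCA5 (sororin) keeps cohesin on sister chromatids, and CDCA2 (Repo-Man) brings protein phosphatase PP1 to chromatin as mitosis ends. CDCA4 is a SERTA domain protein of the E2F pathway. CDCA7 works with the chromatin remodeller HELLS in keeping DNA methylation, and its relative CDCA7L binds MYC and the chromatin protein LEDGF.

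The promoter windows of 4 members held the letters TTTGAA or TTCGAA of the cell cycle homology region. This short element can repress such genes outside G2 and mitosis, but whether these matches do so was not tested. They are shown because the series concerns how CDCA3 is switched on. The windows come from RefSeq on GRCh38.p14, which held 6 of the 7 members. Each run goes 5′ to 3′ on the strand of its gene, from 140 bases before the annotated start through its first 10 bases, at chr12:6851277-6851426 (minus strand), chr1:37692376-37692525 (plus strand), chr11:65084031-65084180 (minus strand) and chr14:105021074-105021223 (minus strand). Capitals mark the cell cycle homology region, TTTGAA or TTCGAA, and the CCAAT box, each read on both strands, so that a CCAAT box on the other strand appears as ATTGG.
CDCA3: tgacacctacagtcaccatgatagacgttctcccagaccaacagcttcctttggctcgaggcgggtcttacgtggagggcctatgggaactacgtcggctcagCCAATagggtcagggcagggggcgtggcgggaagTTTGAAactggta
CDCA8: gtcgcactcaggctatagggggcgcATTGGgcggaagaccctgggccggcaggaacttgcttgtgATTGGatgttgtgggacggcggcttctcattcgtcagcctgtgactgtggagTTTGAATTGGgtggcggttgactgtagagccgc
CDCA5: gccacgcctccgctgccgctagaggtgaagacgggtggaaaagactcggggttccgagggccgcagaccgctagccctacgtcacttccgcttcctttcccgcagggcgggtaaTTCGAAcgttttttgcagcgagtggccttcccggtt
CDCA4: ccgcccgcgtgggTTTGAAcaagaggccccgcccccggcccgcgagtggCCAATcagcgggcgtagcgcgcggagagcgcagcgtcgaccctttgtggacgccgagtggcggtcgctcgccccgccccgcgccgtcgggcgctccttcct

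In CDCA3 the TTTGAA spanned the annotated start, from position -3 to 3 with no position 0, and a CCAAT box lay at -37 to -33. CDCA8 had TTTGAA at -23 to -18, and its last base was also the first base of 1 of 3 CCAAT boxes. CDCA5 had TTCGAA at -26 to -21, and CDCA4 had TTTGAA much farther out, at -127 to -122. CDCA7 and CDCA7L held neither form in their windows. Over all 35116 RefSeq windows of 250 bases before to 50 after the start, 16.4% held either form, and 2.59% held it within the last 40 bases before the start or the first 10 after it, a range chosen after the matches were seen. The CCAAT box was in 3 of the 6 member windows, against 34.6% of all windows, and 6.01% of all windows held it within that narrower range. The E2F letters TTTCCCGC were in the windows of CDCA5 and CDCA7, against 1.63% of all windows, while TTTCGCGC and TTTGGCGC were in none of the 6. The MYB core AACNG, searched on both strands because MYBL2 is a MYB protein, was in all 6 windows, but also in 77.2% of all windows. In CDCA3 its match at 3 to 7 shared 1 base with the TTTGAA. These matches describe letters and are no measure of binding.

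**Figure D1:**
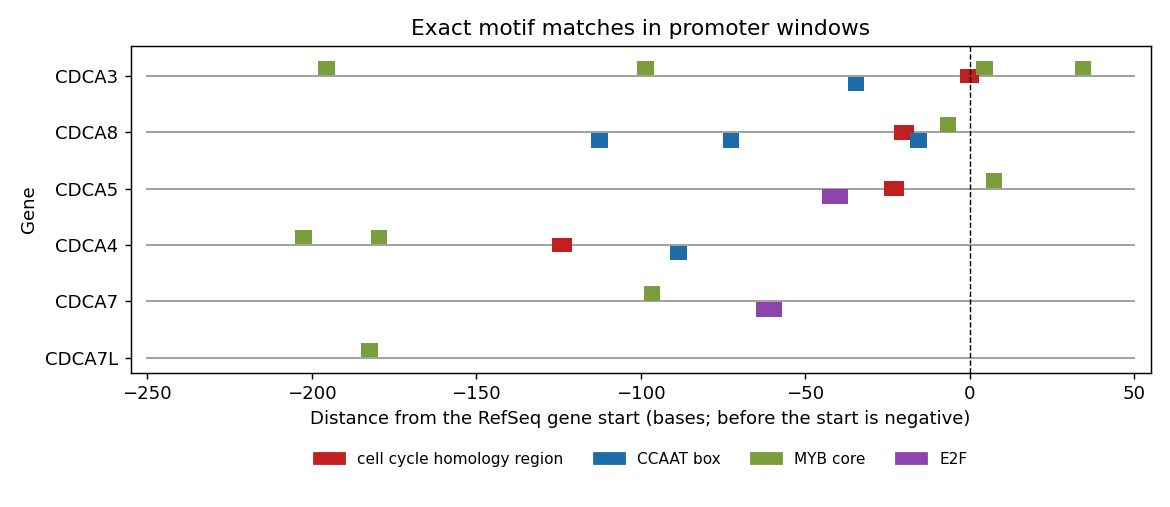
Exact motif matches in the RefSeq promoter windows of 6 CDCA genes, by distance in bases from the annotated start (dashed line); coloured blocks are matches on either strand. The cell cycle homology region lies at or within 40 bases before the start in CDCA3, CDCA8 and CDCA5 and farther out in CDCA4.

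CDCA3, against which the siRNA was directed, stood far below siNC in both siCDCA3 libraries, and lower in siCDCA3-1 than in siCDCA3-2. CDCA3 (NM_031299.6, GRCh38.p14 chromosome 12, 6844798 to 6851286) had 5.52 RPKM in siNC, 0.574 in siCDCA3-1 and 1.40 in siCDCA3-2. The siCDCA3 libraries thus both lay under siNC and did not overlap it. The level left was 10.4% of siNC in siCDCA3-1 (8.45% to 12.6%) and 25.3% in siCDCA3-2 (22.6% to 28.3%), and siCDCA3-2 held 2.44 times the level of siCDCA3-1 (1.97 to 3.04). Ranked from the lowest difference from siNC among 10153 genes on the log2(RPKM + 1) scale, CDCA3 had rank 15 in siCDCA3-1 and rank 116 in siCDCA3-2. Only 10 genes, CDCA3 among them, were at least as low as CDCA3 in both libraries, which is 0.0985% of the genes.

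The test asked whether the members differed between siCDCA3 and siNC by more than the libraries vary. The edgeR quasi-likelihood test called 0 of the 7 members, against 0.0295% of all genes called lower and 0% called higher. CDCA3 had a fitted log2 fold change of -2.50, a standard error of 0.67 and, before adjustment, a p of 0.00246 (edgeR adjusted p = 0.9997). CDCA3 was the 1 member with an unadjusted p under 0.05 in edgeR, in DESeq2 and in limma, a level that 1.32%, 1.53% and 1.19% of all genes reached in these tools. Its adjusted p over the alternatives ran from 0.0604 in edgeR without a filter on low values to 0.99997 in limma, with 0.3545 in DESeq2, so no tool called it. The fit has 1 residual degree of freedom and the single siNC library is assumed to vary as the siCDCA3 libraries do, so an adjusted p over the threshold is no sign that a member kept its level.

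The low level of CDCA3 was seen in each of its 5 deposited transcript rows. In siNC they ran from 3.17 RPKM for NM_001331019.1 (1524 bases) to 5.52 RPKM for NM_031299.6 (1808 bases). In siCDCA3-1 the 5 rows were at 9.39% to 11.5% of their own siNC level, and in siCDCA3-2 at 25.3% to 30.4%. The counting intervals of the rows overlapped one another within each library, and the highest bound in siCDCA3-1 (14.5%) lay under the lowest bound in siCDCA3-2 (22.6%). The rows are not independent, because a read can be counted for several transcripts of a gene. For CDCA3 the row with the fewest counts had 48.3% of the counts of the row with the most in siNC, a wider spread than in any other member, where the corresponding share was 73.6% for CDCA4 and from 91.4% to 99.1% for the others with several rows. NM_001297604.2 is 107 bases shorter than NM_031299.6, and the GENCODE v29 transcript paired with it lacks the fifth exon of 107 bases. That row had 4.69 RPKM in siNC, 0.440 in siCDCA3-1 and 1.38 in siCDCA3-2. NM_001297602.2 is 75 bases shorter, and the fourth exon of its paired GENCODE transcript has 219 bases instead of 294, with 4.41, 0.432 and 1.18 RPKM in the row. The paired GENCODE models differ in total length from the deposited rows, and these rows share most of their sequence with the main row, so their values do not measure the separate forms.

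**Figure D2:**
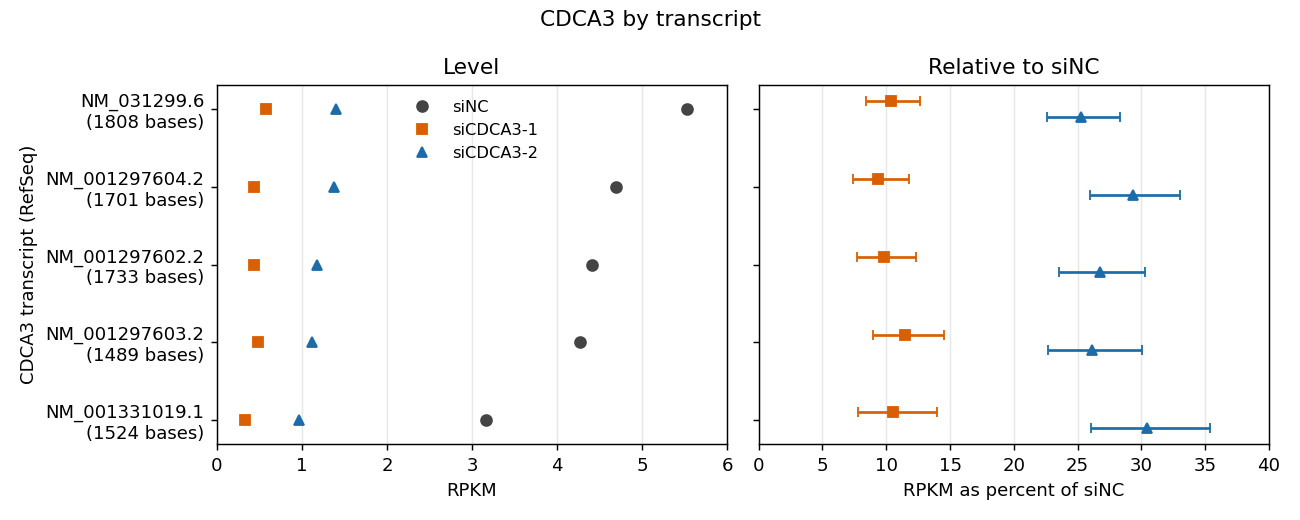
CDCA3 by deposited transcript row: left, RPKM in each library; right, RPKM as percent of siNC with exact 95% counting intervals. All 5 rows lie between 9.39% and 11.5% in siCDCA3-1 and between 25.3% and 30.4% in siCDCA3-2.

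GNB3, a G protein beta subunit gene on the opposite strand, overlaps 2596 bases of the CDCA3 locus at its 3′ end. The GENCODE transcript paired with the main row, NM_031299.6, has 0 exon bases within the GNB3 span. The same holds for those paired with NM_001297602.2 and NM_001297604.2, while that paired with NM_001297603.2 has 2111 such bases. The deposited NM_001297603.2 row is only 1489 bases long, so this model does not give the overlap of that row. NM_001331019.1 had no paired GENCODE transcript here. The sources used here do not say whether reads were counted by strand, so reads in such shared bases cannot be separated. GNB3 had 148 counts in siNC, 67 in siCDCA3-1 and 184 in siCDCA3-2 (0.656, 0.372 and 0.662 RPKM).

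The other 6 members differed far less from siNC than CDCA3. They lay between 67.3% and 130% of their siNC level in each library. On the log2(RPKM + 1) scale, none of them was at least 2-fold lower or higher in both libraries. CDCA3 was at least 2-fold lower in both, as were 0.719% of all genes, while 0.0985% were at least 2-fold higher in both. In siCDCA3-1, 5 of the 6 were lower than siNC, and 2 of the 6 were lower in siCDCA3-2. Counting all 7, 6 members were lower in siCDCA3-1 and 3 in siCDCA3-2, where 58.6% and 45.6% of all genes were lower. The members' median differences on the log2(RPKM + 1) scale, CDCA3 left out, were -0.35 in siCDCA3-1 and 0.073 in siCDCA3-2, beside -0.067 and 0.046 over all genes tested. Both differences are taken from the same siNC library.

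**Figure D3:**
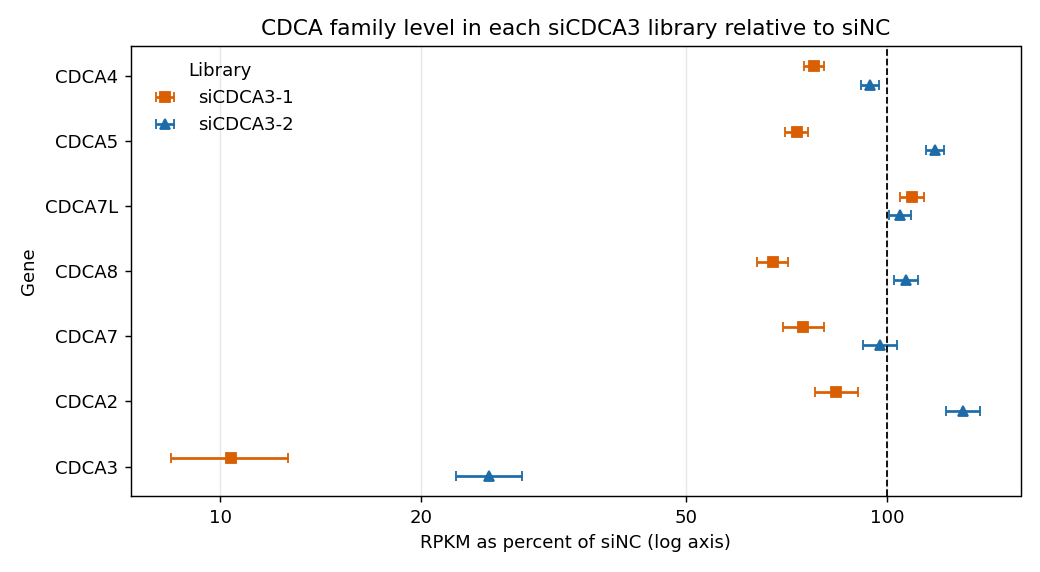
RPKM of each CDCA gene in siCDCA3-1 (squares) and siCDCA3-2 (triangles) as percent of siNC on a log axis, with exact 95% counting intervals; the dashed line is the siNC level. CDCA3 lies at 10.4% and 25.3%, and the other 6 genes lie between 67.3% and 130%.

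The members that act on mitotic chromosomes, CDCA8, CDCA5 and CDCA2, were lower than siNC in siCDCA3-1 and higher in siCDCA3-2. That order was held by 3 of the 7 members and by 30.8% of all genes. CDCA8 (NM_001256875.1, GRCh38.p14 chromosome 1, 37692516 to 37709719) had 12.7 RPKM in siNC, 8.53 in siCDCA3-1 and 13.5 in siCDCA3-2. Relative to siNC, CDCA8 was the lowest member after CDCA3 in siCDCA3-1, at 67.3% (63.9% to 70.9%), but stood at 107% (102% to 111%) in siCDCA3-2. CDCA5 (NM_080668.3, chromosome 11, 65061093 to 65084040) had 20.0, 14.6 and 23.6 RPKM, or 73.1% (70.3% to 76.1%) and 118% (114% to 122%) of siNC. CDCA2 (NM_001317906.1, chromosome 8) had 3.63, 3.05 and 4.71 RPKM, or 83.9% (78.0% to 90.2%) and 130% (122% to 138%). For each of the 3 genes, siNC lay between the siCDCA3 libraries, and the siCDCA3 libraries stood 1.59-fold (CDCA8), 1.61-fold (CDCA5) and 1.55-fold (CDCA2) apart. Their edgeR log2 fold changes were -0.20 for CDCA8, -0.069 for CDCA5 and 0.094 for CDCA2, with standard errors of 0.49 to 0.53 and edgeR adjusted p of 0.9997 each. The direction turned with the library used: without siCDCA3-1 the values were 0.034, 0.18 and 0.32, and without siCDCA3-2 they were -0.49, -0.37 and -0.17.

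CDCA4 and CDCA7 were lower than siNC in both siCDCA3 libraries, and farther below it in siCDCA3-1 than in siCDCA3-2. With CDCA3 they made 3 of 7 members lower in both, against 27.8% of all genes. CDCA4 (NM_017955.3, chromosome 14, 105009573 to 105021083) had 24.5 RPKM in siNC, 19.0 in siCDCA3-1 and 23.1 in siCDCA3-2. These are 77.6% (74.9% to 80.5%) and 94.3% (91.5% to 97.2%) of siNC. Its second row, NM_145701.2, stood at 79.4% and 89.0%. CDCA7 (NM_031942.4, chromosome 2, 173354872 to 173368997) had 5.51 RPKM in siNC, 4.13 in siCDCA3-1 and 5.38 in siCDCA3-2, or 74.9% (69.7% to 80.4%) and 97.5% (91.9% to 104%). The siCDCA3-2 interval of CDCA7 holds the siNC level. In edgeR both genes had a log2 fold change of -0.21, with standard errors of 0.49 and 0.52 and edgeR adjusted p of 0.9997.

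CDCA7L was the member that varied least. CDCA7L (NM_001127370.2, chromosome 7, 21900899 to 21945899) had 12.2 RPKM in siNC, 13.3 in siCDCA3-1 and 12.7 in siCDCA3-2, so its highest level was 1.09 times its lowest. Of the members it alone was higher in both siCDCA3 libraries, as 23.6% of all genes were, at 109% (104% to 114%) and 104% (101% to 109%) of siNC. Under TMM scaling (edgeR's trimmed mean of M-values) the siCDCA3-2 value was 100.2%. In edgeR its log2 fold change of 0.11 had a standard error of 0.48 (adjusted p = 0.9997). CDCA7L was also the member with siCDCA3-2 under siCDCA3-1, at 0.958-fold (0.921 to 0.997). In the other 6 members siCDCA3-2 was the higher of the siCDCA3 libraries, by 1.21-fold for CDCA4 up to 2.44-fold for CDCA3.

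By RPKM, which is per length and so allows genes to be compared, the members formed an order with overlapping neighbours. Means over the 3 libraries were 22.2 RPKM for CDCA4, 19.4 for CDCA5, 12.7 for CDCA7L, 11.6 for CDCA8, 5.01 for CDCA7, 3.80 for CDCA2 and 2.50 for CDCA3. The ranges of CDCA4 and CDCA5 overlapped, as did those of CDCA7L and CDCA8, and those of CDCA7, CDCA2 and CDCA3 with one another. These means hold the siCDCA3 libraries, and in siNC alone the order differed: CDCA8 (12.7) stood above CDCA7L (12.2), and CDCA3 (5.52) stood above CDCA2 (3.63). The lowest CDCA5 library (14.6) lay above the highest libraries of CDCA7L (13.3) and CDCA8 (13.5), and the lowest CDCA8 library (8.53) lay above the highest CDCA7 library (5.51). In siNC CDCA3 and CDCA7 stood at the same level, 5.52 and 5.51 RPKM, with counting intervals of 5.23 to 5.83 and 5.28 to 5.76. In both siCDCA3 libraries CDCA3 was the lowest member.

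**Figure D4:**
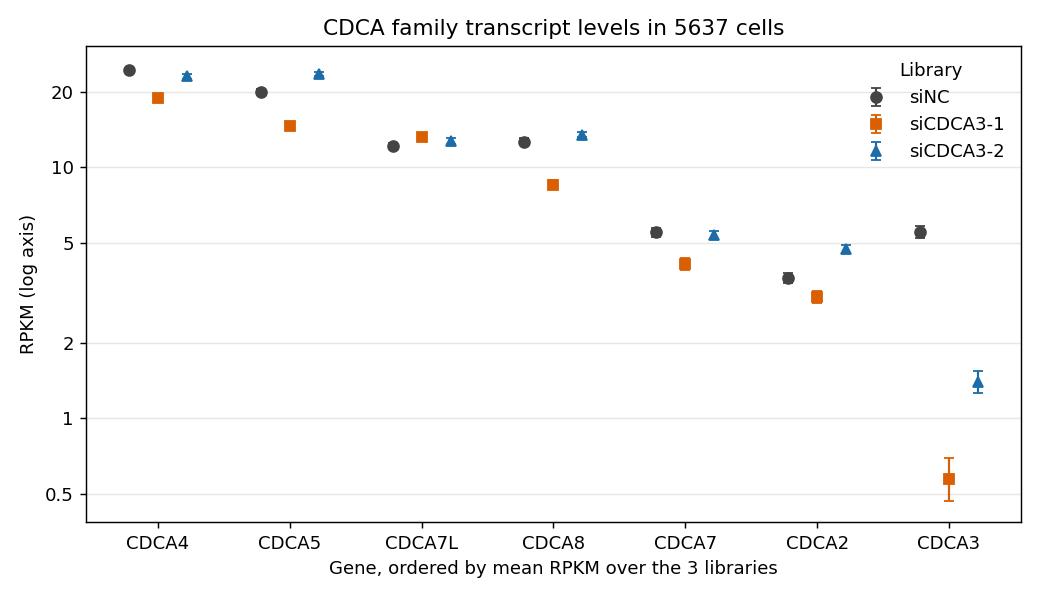
RPKM of the 7 CDCA genes on a log axis in siNC (circles), siCDCA3-1 (squares) and siCDCA3-2 (triangles), with exact 95% counting intervals. CDCA3 lies at 5.52, 0.574 and 1.40 RPKM, and CDCA7L lies between 12.2 and 13.3 RPKM.

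Genes tied to the CDCA members, among them partner proteins, relatives, regulators and genes once named CDCA, were examined as 11 lists. The lists held 87 genes that are not members, called partner genes here, 85 of them at a mean of 1 RPKM or more. None of the 85 passed the adjusted threshold in edgeR, DESeq2 or limma, and 0 had an unadjusted p under 0.05 in these 3 tools. Of the 85, 42 were lower in siCDCA3-1 and higher in siCDCA3-2 (30.8% of all genes), 17 were lower in both (27.8%), 20 higher in both (23.6%) and 6 higher in siCDCA3-1 and lower in siCDCA3-2 (17.8%). These counts, and those per list below, take the sign of each difference at the deposited scaling, with no minimum size. They were not recounted under TMM scaling. Some signs rest on differences near 0, such as -0.00027 for BIRC5, -0.0045 for CCNB2 and -0.013 for MYBL2 in siCDCA3-2. The median differences of the 85 genes were -0.18 in siCDCA3-1 and 0.25 in siCDCA3-2 on the log2(RPKM + 1) scale. Of each list the 2 genes with the highest mean RPKM are named below, with RPKM in the order siNC, siCDCA3-1 and siCDCA3-2.

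Among the 11 SCF and mitotic entry genes around CDCA3, 5 were lower in siCDCA3-1 and higher in siCDCA3-2, 3 lower in both and 3 higher in both. CDC25B, a phosphatase that activates CDK1, had 67.1, 61.5 and 31.9 RPKM. CCNB1, which encodes cyclin B1, had 24.5, 18.9 and 30.7 RPKM. WEE1, the kinase on which CDCA3 is known to act, had 8.77, 9.36 and 15.1 RPKM and is given outside the naming rule because of that role (edgeR log2 fold change 0.48, adjusted p = 0.9997). In the anaphase-promoting complex list, whose activity controls the stability of CDCA3 protein, 10 of 19 genes were lower in siCDCA3-1 and higher in siCDCA3-2, 3 lower in both and 5 higher in both. Its ubiquitin-conjugating enzymes UBE2S and UBE2C had 141.8, 73.7 and 135.0 RPKM and 69.6, 43.4 and 89.8 RPKM.

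Around CDCA8, the 3 partners in the chromosomal passenger complex were examined. AURKB, the kinase of the chromosomal passenger complex, had 28.1, 18.3 and 30.0 RPKM, and BIRC5 (survivin) had 25.7, 19.3 and 25.7. All 3, INCENP included, were lower in siCDCA3-1, as were 59 of the 85 partner genes and 58.6% of all genes. In siCDCA3-2 BIRC5 stood at its siNC level (difference of -0.00027 on the log2(RPKM + 1) scale), while AURKB and INCENP were higher. Around CDCA5, 9 of 15 cohesin genes were lower in siCDCA3-1 and higher in siCDCA3-2, 2 were lower in both and 3 higher in both. RAD21, a cohesin subunit, had 45.1, 35.2 and 41.5 RPKM, and PTTG1 (securin), the inhibitor of separase, had 38.3, 19.7 and 40.3. Around CDCA2, the PP1 subunits PPP1CA and PPP1CC had 85.7, 77.2 and 82.4 RPKM and 15.1, 12.8 and 21.0 RPKM.

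The partners of CDCA7 and CDCA7L were mixed. UHRF1, which reads half-methylated DNA, had 13.98, 22.2 and 21.9 RPKM, and DNMT1, the maintenance methyltransferase, had 27.5, 29.7 and 25.4. Of these 5 DNA methylation genes 3 were lower in siCDCA3-1 and higher in siCDCA3-2, and UHRF1 was the 1 that was higher in both (edgeR log2 fold change 0.67 with a standard error of 0.51, adjusted p = 0.9997). Of those 3, ZBTB24 and DNMT3B differed from siNC in siCDCA3-1 by only -0.0067 and -0.055 on the log2(RPKM + 1) scale. Whether they stay lower there under TMM scaling was not tested. MYC had 27.5, 17.3 and 54.9 RPKM, and PSIP1, which encodes LEDGF, had 14.5, 9.23 and 10.3. In the SERTA domain family of CDCA4, 3 of 4 other genes were tested, of which 2 were higher in both libraries and none was lower in both. SERTAD1 had 6.71, 7.70 and 6.91 RPKM and SERTAD3 had 7.41, 8.74 and 4.04.

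Regulators of these genes were also read. In the E2F and pRB list 12 of 13 genes were tested, with 6 lower in siCDCA3-1 and higher in siCDCA3-2, 2 lower in both and 3 higher in both. TFDP1, the dimer partner of E2F proteins, had 47.4, 24.6 and 74.7 RPKM, and E2F3 had 32.9, 37.8 and 52.6. Of the 7 genes of the MYBL2, FOXM1 and MuvB list 3 were lower in both, 3 were lower in siCDCA3-1 and higher in siCDCA3-2, and 1 was higher in both. MYBL2 had 76.6, 51.6 and 75.9 RPKM, and FOXM1, a transcription factor of G2 genes, had 18.7, 14.9 and 19.7. Of the 2 genes first named as CDCA genes and later renamed, NUF2, a kinetochore protein, had 7.46, 4.20 and 10.2 RPKM, and CBX2, a Polycomb protein, had 16.5, 22.8 and 15.9.

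**Figure D5:**
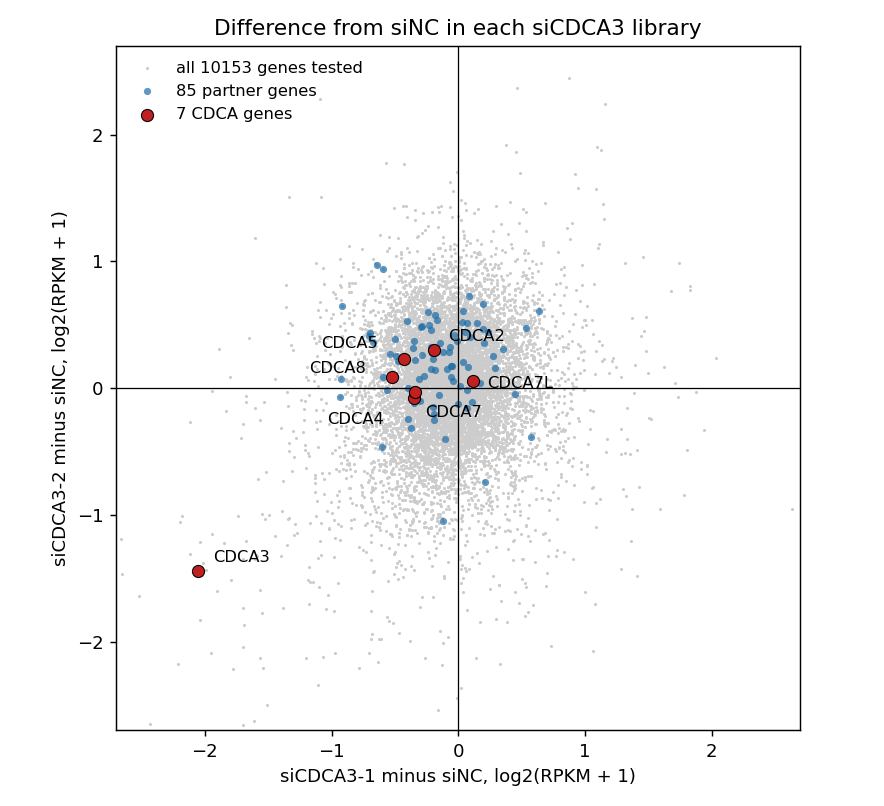
Difference from siNC on the log2(RPKM + 1) scale in siCDCA3-1 (x axis) and siCDCA3-2 (y axis) for 10153 genes (grey, 24 outside the axes), 85 partner genes (blue) and the 7 CDCA genes (red). CDCA3 lies at -2.05 and -1.44, and the other 6 members lie between -0.52 and 0.30 on both axes; both axes share the siNC library.

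The genes whose pair of differences lay closest to that of CDCA3 were GARS, CSF3, YARS, CSTA and PYCR1, with Euclidean distances of 0.066 to 0.23 on the log2(RPKM + 1) scale over 3 libraries. GARS, a glycyl-tRNA synthetase, had 60.1, 14.4 and 21.6 RPKM, and YARS, the tyrosyl-tRNA synthetase, had 50.2, 10.8 and 19.6. CSF3, a colony-stimulating factor, had 31.6, 7.07 and 11.5 RPKM. CSTA (cystatin A) had 31.5, 7.68 and 9.73 RPKM, and PYCR1, an enzyme of proline synthesis, had 15.6, 3.04 and 6.16. All 5 were expressed higher in siNC than CDCA3, and the added 1 makes the difference of a low gene such as CDCA3 look smaller, so on the RPKM scale GARS lay at 24.0% and 35.9% of siNC, beside 10.4% and 25.3% for CDCA3. None of the 5 passed the edgeR test (adjusted p = 0.9997 each).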

How the data were processed

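RNA from 1 siNC and 2 siCDCA3 libraries had been depleted of ribosomal RNA and sequenced in pairs, per the labels' protocols. The submitters' processing notes name Trimmomatic 0.36, FastQC, HISAT2 and HTSeq, and list a human and a mouse genome build without a role. The deposited table holds, per the file headers, whole-number read counts per RefSeq transcript (count), its length in bases, and the RPKM that the authors computed from both and from a single total per library. Those totals, recovered from the values, were 130459616, 104153360 and 160640877 for siNC, siCDCA3-1 and siCDCA3-2. Of the rows, 98.6% matched the RefSeq table of GRCh38.p14, which gave coordinates.

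Each gene was represented by its row with the highest summed count. Counts were tested with edgeR 4.0.16 (R 4.3.3): TMM scaling, a two-sided quasi-likelihood test and an adjusted p threshold of 0.05 (Benjamini-Hochberg, over the 10153 genes whose mean RPKM reached 1). Standard errors were taken from the fold change and the F statistic. Differences used log2(RPKM + 1), which understates low genes. Ratios between 2 libraries carry exact binomial (Clopper-Pearson) intervals with the authors' totals and no test. Alternatives were DESeq2 1.42.0, limma 3.58.1, median-of-ratios scaling, other filters and pseudocounts, the longest transcript and each siCDCA3 library left out. Named were all members, the 2 highest partner genes per list by mean RPKM, and the 5 genes closest to CDCA3. The members and lists were chosen with earlier results of these data known.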

Additional observations from a re-analysis of the deposited data

How the results depend on the processing

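The count of CDCA members past the adjusted threshold was 0 in edgeR under each scaling, filter and transcript choice, in DESeq2 and in limma, and so was that of partner genes. A filter at a mean of 5 RPKM removed CDCA2 and CDCA3, so these were not tested there. Without siCDCA3-1 or siCDCA3-2 in turn, values without a test, the log2 fold change ran from -3.18 to -2.04 for CDCA3, from -0.17 to 0.32 for CDCA2, from -0.37 to 0.18 for CDCA5 and from -0.49 to 0.034 for CDCA8. Direction thus turned for the last 3, and it did not turn for the other 4 members under any alternative run. For CDCA7L, however, the value without siCDCA3-1 was 0.0026, almost no difference, against 0.21 without siCDCA3-2. TMM scaling raised all log2 ratios of siCDCA3-1 to siNC, taken without the added 1, by 0.082 and lowered those of siCDCA3-2 by 0.060. It put CDCA3 at 11.0% and 24.3% of siNC. It put siCDCA3-2 over siCDCA3-1 at 1.44-fold for CDCA8, 1.46 for CDCA5, 1.40 for CDCA2 and 1.10 for CDCA4. These left their counting intervals, while 2.21-fold for CDCA3 stayed inside. Of the members' ratios to siNC and between siCDCA3 libraries, 14 left their intervals under TMM and 7 did not. For all 7 members the longest transcript was also the row with the most counts, so that choice moved no ratio. Pseudocounts of 0.1 and 0.5 left the partner genes' median, averaged over the siCDCA3 libraries, at 0.038 and 0.037, beside 0.037. No paired analysis was possible because siNC is a single library with no number in its label. With 1 residual degree of freedom, small changes cannot be told from the spread between libraries.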

Other observations

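Genes that lie within 1000 bases of a CDCA gene were read as well, chosen by position on GRCh38.p14 and not by value, with RPKM in the order siNC, siCDCA3-1 and siCDCA3-2. CDCA8, CDCA2, CDCA5 and CDCA3 each have such a gene on the opposite strand, start to start. C1orf109, which starts 273 bases from CDCA8, had 3.80, 2.45 and 5.98 RPKM, the same order of libraries as CDCA8. KCTD9, 497 bases from CDCA2, had 3.82, 2.80 and 4.39 RPKM, also the order of its neighbour. That order, lower in siCDCA3-1 and higher in siCDCA3-2, was held by 30.8% of all genes, and a link between neighbours was not tested. ZFPL1, 181 bases from CDCA5, had 13.3, 8.93 and 8.16 RPKM and so was low in siCDCA3-2, where CDCA5 was high. USP5, a ubiquitin-specific protease gene 863 bases from CDCA3, had 12.2, 15.3 and 13.7 RPKM and was thus not low where CDCA3 was.

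Genes that overlap the ends of CDCA5 and CDCA7L were low. NAALADL1, which shares 111 bases with CDCA5, had 4, 8 and 13 counts, against 6721, 3924 and 9769 for CDCA5. DNAH11, which shares 941 bases with CDCA7L on the opposite strand, had 815, 876 and 1080 counts over its whole transcript, or 0.450, 0.605 and 0.484 RPKM, against 12.2, 13.3 and 12.7 RPKM for CDCA7L.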
